A study of Mus musculus with 6 samples.

Results

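Transcripts of 10 genes best known from cartilage and tendon were followed in single cells of the mouse knee synovium, the soft tissue that lines the joint. The genes were picked by name, by a rule that uses no measured value, though earlier results of these data were known when they were picked: Acan, Col2a1, Col11a1, Sox9, Chad, Cilp, Cilp2, Cytl1, Scx and Tnmd, which are 10 of the 31017 genes in the count matrices. All 10 were detected, between 139 UMIs (Col2a1) and 13959 UMIs (Cilp) over the 6 libraries. A UMI, or unique molecular identifier, marks 1 captured transcript, so that amplified copies are counted once.

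Cartilage matrix is built from fibrils of type II collagen (Col2a1) and type XI collagen (Col11a1) around the large proteoglycan aggrecan (Acan), and the transcription factor Sox9 switches on these genes in chondrocytes. Chondroadherin (Chad) and the cartilage intermediate layer proteins (Cilp and Cilp2) are smaller matrix proteins of cartilage, tendon and meniscus, and Cytl1 encodes a small secreted protein found in cartilage. Scleraxis (Scx) is the transcription factor that marks tendon progenitors, and tenomodulin (Tnmd) is a membrane protein of mature tendon cells that depends on it.

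The study asked how Notch3, a receptor of the Notch family, acts on synovial cells in health and in inflammatory arthritis. The 6 groups, each of 1 library, were healthy Wild Type mice, healthy Notch3-/- knockout mice, arthritic Wild Type mice, arthritic Notch3-/- knockout mice, and mice with arthritis treated with either an Isotype control antibody or an antiNotch3 mAB. Arthritis was induced by transfer of serum from K/BxN mice, which carries autoantibodies that inflame the joints of the recipient. The labels do not give the genotype of the antibody-treated mice or the age of any mouse. Each library came from pooled knee synovium of 10 mice, from which living cells were sorted with no gate for cell type and 7000 were loaded. The pool of mice hides their spread, and no group has a second library.

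The libraries held 2109 to 5096 barcodes (18491 in all) and 11636998 to 24535233 UMIs. After 414 barcodes with over 10% mitochondrial UMIs and 179 called doublets were left out, 2043 to 4897 cells per library remained, of which 1036 to 3654 were stromal (11334 in all). The median depth of the stromal cells ran from 4515.5 UMIs (arthritic knockout) to 8357 (healthy wild type). Pairs of libraries shared 5 to 29 barcode sequences. Over all cells Notch3 was at 4.96 CPM in healthy wild type and 5.58 in arthritic wild type, against 0.299 and 0.257 in the matching knockouts, and at 3.30 in isotype and 2.21 in anti-Notch3. CPM are UMIs of the gene per 1000000 UMIs, both summed over the named cells of a library. All ranges given with a level or share are 95% intervals (exact Poisson, or Clopper-Pearson for shares), and they cover counting error only.

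The cells fell into 25 clusters, made without the 10 genes and without the genes of the partner lists below, so that which cells carry the genes was not set by the clustering. Of these, 10 clusters were stromal: 8 classed by raised fibroblast markers and 2 by raised tendon markers. The latter are called tendon-led below, though their leading genes are not all tendon markers. No cluster was classed by chondrocyte markers. The first tendon-led cluster held 1074 cells and was led by Tnn, C1qtnf3, Lrrc15, Col12a1 and Piezo2. It held 41.1% of stromal cells in the isotype library, 10.6% in arthritic wild type, 8.27% in anti-Notch3, and 0.056%, 0.438% and 0.291% in healthy wild type, healthy knockout and arthritic knockout. Because 853 of its 1074 cells came from the isotype library, it may be that library and not a cell type. The second held 280 cells, was led by Angptl7, Clu, Fibin, Wif1 and Npy, and was present in every library, from 0.820% (isotype) to 3.996% (healthy knockout) of stromal cells. Of the fibroblast clusters, those led by Dlk1 (with Dkk2, Myoc, Penk and Ccl19), Cfd (with Car3, Sfrp4, Uts2r and Ibsp), Mfap4 (with H19, Ptn, Postn and Mdk) and Scrg1 (with Inmt, Cp, Cxcl12 and Pi15) held at least 10% of the UMIs of some member. In the Saa3-led cluster 387 of 723 cells came from arthritic wild type and 330 from isotype, so the stromal cells compared between libraries were made up of different clusters.

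The genes parted by cluster. The Tnn-led cluster held 73.5% of all Acan UMIs, 63.0% of Col11a1 and 46.7% of Scx. The isotype library alone held 1504 of 1708 Acan, 1677 of 2105 Col11a1 and 785 of 1399 Scx UMIs. In healthy wild type, healthy knockout and arthritic knockout the Tnn-led cluster held 0%, 0.513% and 0% of Col11a1 and 0%, 0% and 2.5% of Scx UMIs. Over all libraries the Angptl7-led cluster held 90.3% of Chad UMIs, 80.6% of Col2a1, 74.9% of Cytl1 and 63.7% of Cilp2. Fibroblast clusters held 75.0% of Sox9 UMIs, 73.3% of Tnmd and 56.3% of Cilp. At a coarser resolution the clusters classed by tendon markers together held 90.9% of Acan and 49.4% of Cilp UMIs. The larger of them had 2407 cells and was led by Saa3, Mmp13, Hp, Mfap4 and Cxcl5. These shares thus cover many cells outside the Tnn-led and Angptl7-led clusters.

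**Figure D1:**
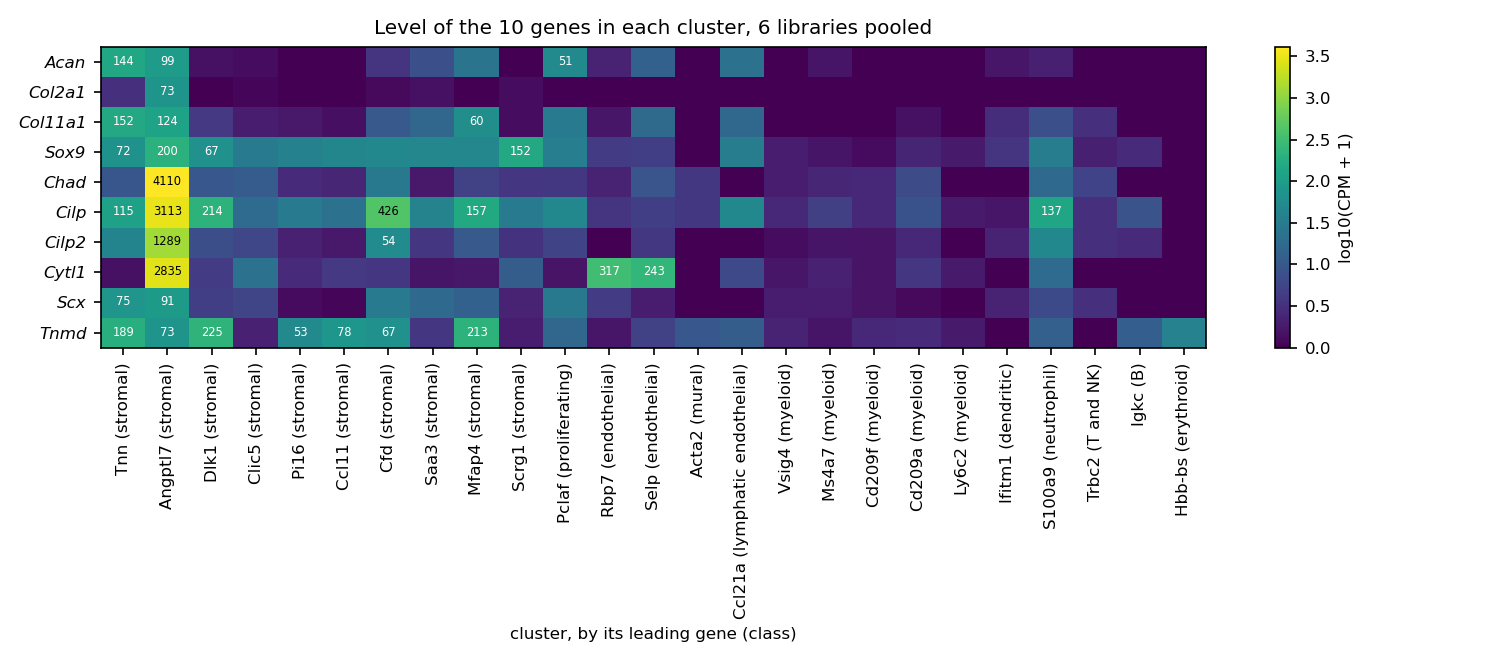
Level of each gene (rows) in each of the 25 clusters (columns, named by leading gene and class), as log10(CPM + 1) over the 6 libraries pooled, with the CPM printed where it was at least 50. Read along a row: Chad reached 4110 CPM in the Angptl7-led cluster, Acan 144 in the Tnn-led cluster, and Cytl1 was high in the Angptl7-led cluster (2835) and in both endothelial clusters (317 and 243).

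Which cells carried a gene also differed between libraries. In the isotype library 80.7% of Acan UMIs lay in the Tnn-led cluster, whereas in the arthritic knockout 73.1% lay in the Angptl7-led cluster. In healthy wild type 44.8% of Acan and 34.9% of Col11a1 UMIs came from a single endothelial-class cell with 15796 UMIs, which also held 31 Cytl1, 13 Chad, 6 Pecam1, 8 Cdh5 and 29 Dcn UMIs. That cell was not called a doublet and is not counted among the stromal cells below. In arthritic wild type, cells outside the stromal, endothelial and proliferating clusters held 16.4% of Cilp and 33.9% of Cilp2 UMIs. Of the 153 neutrophil-class cells of all libraries 25 had a Cilp UMI, 18 of them from arthritic wild type, and all 25 also had Dcn, a fibroblast gene. Dcn was also in 90 of the 128 neutrophil-class cells without Cilp.

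**Figure D2:**
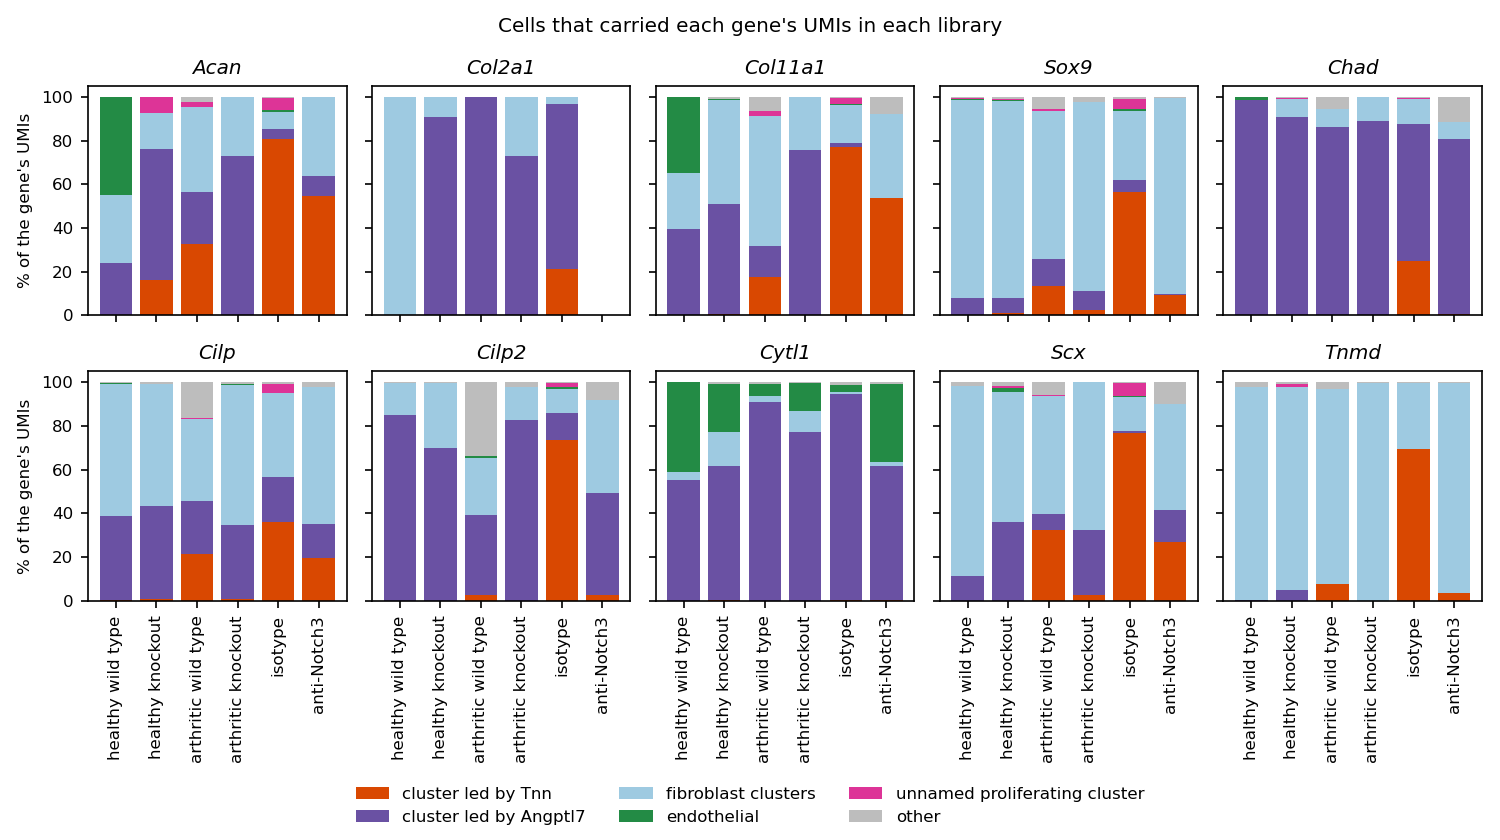
Share of the UMIs of each gene (panels, % of all UMIs of the gene in that library) that lay in the Tnn-led cluster, the Angptl7-led cluster, the fibroblast clusters, the endothelial class, the unnamed proliferating cluster and all other cells. Chad stayed mostly in the Angptl7-led cluster in all 6 libraries. The main carrier of Acan, Col11a1, Sox9, Cilp2, Scx and Tnmd was another in isotype than in the healthy libraries.

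On mm10 the GENCODE annotation places Acan at chr7:79053483-79115099 (plus strand), Col2a1 at chr15:97975602-98004695 (minus), Col11a1 at chr3:114030540-114220718 (plus), Sox9 at chr11:112782224-112787760 (plus) and Chad at chr11:94565047-94569127 (plus). Cilp lies at chr9:65265180-65280605 (plus), Cilp2 at chr8:69880369-69887687 (minus), Cytl1 at chr5:37735519-37739820 (plus), Scx at chr15:76457452-76459458 (plus) and Tnmd at chrX:133850980-133865577 (plus). All 10 are protein-coding. Scx overlaps Bop1 and Chad overlaps Acsf2, both on the opposite strand and with no shared exon bases.

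The 250 bases before the RefSeq start (GRCm38.p6) are shown for Acan and Col11a1, most of whose UMIs came from the isotype library and its Tnn-led cells, and for Chad and Cytl1, carried mainly by the Angptl7-led cluster. Capitals mark a GC box (GGGCGG) or a TATA box (TATAAA), read on both strands.
Acan (chr7:79052976-79053225, plus strand): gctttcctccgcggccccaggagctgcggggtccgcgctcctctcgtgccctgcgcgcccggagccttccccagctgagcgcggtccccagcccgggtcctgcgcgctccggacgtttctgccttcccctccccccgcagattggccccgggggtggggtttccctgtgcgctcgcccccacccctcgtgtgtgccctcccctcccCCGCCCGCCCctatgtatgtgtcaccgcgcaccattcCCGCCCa
Col11a1 (chr3:114030290-114030539, plus strand): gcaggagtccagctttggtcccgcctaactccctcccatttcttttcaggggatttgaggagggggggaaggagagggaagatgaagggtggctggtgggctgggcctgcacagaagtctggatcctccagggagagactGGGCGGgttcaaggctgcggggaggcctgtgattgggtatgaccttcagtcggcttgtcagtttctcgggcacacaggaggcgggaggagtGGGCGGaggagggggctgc
Chad (chr11:94564797-94565046, plus strand): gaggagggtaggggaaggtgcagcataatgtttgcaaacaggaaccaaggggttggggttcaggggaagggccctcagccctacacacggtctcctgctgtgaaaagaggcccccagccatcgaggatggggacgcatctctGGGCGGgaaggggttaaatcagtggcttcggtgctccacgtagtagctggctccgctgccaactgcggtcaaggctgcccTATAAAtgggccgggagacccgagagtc
Cytl1 (chr5:37735269-37735518, plus strand): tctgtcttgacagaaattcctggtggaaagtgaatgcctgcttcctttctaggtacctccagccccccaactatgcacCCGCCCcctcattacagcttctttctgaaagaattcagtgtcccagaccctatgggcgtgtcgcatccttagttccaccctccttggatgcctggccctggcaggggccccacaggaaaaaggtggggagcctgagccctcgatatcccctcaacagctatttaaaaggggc

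The Acan window had 74.4% G and C, against 62.4% for Col11a1, 60.4% for Chad, 54.8% for Cytl1 and a median of 52.4% over the 32851 windows of the table. A GC box stood in 32.7% of all windows and in 5 of the 7 members that the table holds: Acan (44, 40 and 7 bases before the start, the first pair overlapping), Col11a1 (110 and 19), Chad (108), Cytl1 (172) and Cilp2 (106 and 38). The TATA box, found in 12.4% of all windows, stood only in Chad among the 7, 28 bases before the start. The core AACAAT bound by SOX factors, found in 9.42%, stood only in Cilp2. The E-box CANNTG, to which scleraxis-type factors bind, stood in 66.2% of all windows and in Acan, Chad, Cilp and Cilp2. Neither was capitalised. These are matches of letters and say nothing of binding.

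Acan, Col11a1 and Scx were high in the isotype library and low elsewhere. In stromal cells Acan stood at 1.02 CPM (0.582 to 1.65) in healthy wild type, 2.76 (2.05 to 3.62) in healthy knockout, 11.3 (8.95 to 14.1) in arthritic wild type, 3.22 (2.10 to 4.72) in arthritic knockout, 85.9 (81.4 to 90.5) in isotype and 1.58 (0.790 to 2.83) in anti-Notch3. The isotype interval overlapped none of the others, arthritic wild type came second, and the intervals of the other 4 libraries lay under 5 CPM. In such sums fewer cells of a type and less RNA per cell cannot be told apart. Acan UMIs were found in 411 of 2074 isotype stromal cells (19.8%) and in 8 of 1076 anti-Notch3 cells (0.744%).

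Col11a1, whose chain nucleates thin cartilage fibrils, stood at 3.56 CPM (2.69 to 4.63), 10.4 (8.96 to 11.95), 12.02 (9.59 to 14.9), 3.59 (2.41 to 5.16), 99.2 (94.4 to 104.1) and 3.45 (2.21 to 5.14) in the same order of libraries. Scx stood at 10.7 CPM (9.14 to 12.4), 12.3 (10.7 to 14.0), 16.6 (13.7 to 19.9), 4.95 (3.54 to 6.75), 45 (41.8 to 48.4) and 5.33 (3.75 to 7.34). For both genes isotype was highest, and the arthritic libraries with Notch3 targeted lay below both other arthritic libraries without overlap. Among healthy libraries the Scx intervals overlapped and those of Col11a1 did not.

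The 3 genes were carried by many cells each with few UMIs. In the Tnn-led cluster 352 of 1074 cells had Acan (143.8 CPM), 368 had Col11a1 (151.9 CPM) and 293 had Scx (74.8 CPM). Within that cluster alone, Acan was at 170.1 CPM in the isotype library, 40.8 in arthritic wild type and 7.54 in anti-Notch3. Col11a1 was at 181.6, 24.2 and 17.6 CPM, and Scx at 84.2, 60.5 and 13.8. So the isotype library was also the highest per UMI inside the cluster, and the anti-Notch3 cells of the cluster (89 cells) were lower than the isotype cells by 22.6-fold for Acan, 10.3-fold for Col11a1 and 6.09-fold for Scx. The fibroblast clusters without the tendon-led clusters gave the same order of those libraries for Acan, at 12.5, 5.11 and 0.655 CPM.

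Chad, Cilp2 and Cilp, 3 proteins of the mature matrix, were lower in arthritic wild type than in healthy wild type. Chad stood in stromal cells at 78.0 CPM (73.7 to 82.5) in healthy wild type, 204.5 (198.0 to 211.1) in healthy knockout, 23.5 (20.0 to 27.4) in arthritic wild type, 163.0 (154.3 to 172.0) in arthritic knockout, 16.2 (14.3 to 18.3) in isotype and 25.2 (21.6 to 29.2) in anti-Notch3. Both knockouts were higher than every other library, and anti-Notch3 overlapped arthritic wild type. In the Angptl7-led cluster 212 of 280 cells carried Chad, at 4110 CPM.

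Part of that spread was also present inside the Angptl7-led cluster. There Chad was at 2747, 4801, 2231, 6992, 1758 and 3559 CPM in the order above, so each library with Notch3 targeted was above its partner. The cluster's share of stromal cells was also higher in each of them, at 3.996% against 2.98% in healthy joints, 2.16% against 1.54% in arthritic joints of the genotype pair, and 1.02% against 0.820% in the antibody pair. As a share of all cells the antibody pair turned, at 0.538% in anti-Notch3 against 0.560% in isotype. The genotype pairs did not, at 2.98% against 1.83% in healthy and 1.41% against 0.671% in arthritic joints. With 11 to 17 cells in 3 of the libraries, these shares rest on few cells.

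Cilp2 stood at 43.3 CPM (40.2 to 46.7), 77.9 (73.9 to 82.0), 10.5 (8.19 to 13.1), 37.2 (33.1 to 41.6), 29.2 (26.6 to 31.9) and 9.93 (7.73 to 12.6) over stromal cells. Healthy knockout was highest, and arthritic wild type and anti-Notch3 were lowest and overlapped. Inside the Angptl7-led cluster, where 250 of 280 cells carried it, Cilp2 was at 1304 and 1407 CPM in the healthy libraries and at 610, 1513, 649 and 783 in the arthritic libraries, in the order above. In the isotype library 359 of its UMIs lay in the Tnn-led cluster, against 62 in the Angptl7-led cluster.

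Cilp, which binds transforming growth factor beta, was the most widespread of these matrix genes. It stood at 308.7 CPM (300.1 to 317.5), 211.3 (204.7 to 218.0), 78.3 (71.9 to 85.1), 207.9 (198.1 to 218.1), 93.0 (88.4 to 97.8) and 166.1 (156.6 to 175.9) in the same order. Healthy wild type was highest, arthritic wild type and isotype were lowest, and the arthritic libraries with Notch3 targeted lay between. The Angptl7-led cluster (3113 CPM, 239 of 280 cells), the Cfd-led cluster (425.5 CPM, 27.01% of Cilp UMIs) and the Dlk1-led cluster (214 CPM) were its main carriers. In the Tnn-led cluster Cilp ran against Acan, at 80.9 CPM in isotype, 213.1 in arthritic wild type and 292.9 in anti-Notch3.

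Col2a1, the main collagen of hyaline cartilage, was rare. It gave 139 UMIs in 29 cells, all stromal. The libraries held 1, 11, 26, 11, 90 and 0 of these UMIs, or 0.064 CPM (0.0016 to 0.355), 0.594 (0.297 to 1.06), 3.72 (2.43 to 5.45), 1.36 (0.680 to 2.44), 5.53 (4.44 to 6.79) and, in anti-Notch3, 0 CPM, where a floor of 3 UMIs stands at 0.432. Isotype and arthritic wild type overlapped and were higher than both healthy libraries and anti-Notch3. The 3 richest cells held 56.1% of the UMIs, and the richest cell, from isotype, held 46.

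Of the 29 cells with Col2a1, 24 also had Acan, 21 Sox9, 21 Col11a1, 18 Hapln1 (the link protein that ties aggrecan to hyaluronan), 16 Cytl1, 11 Ucma (a growth-plate and cartilage gene) and 11 a type IX collagen chain. Tnmd was seen in 6. By cluster, 16 lay in the Angptl7-led cluster and 8, all from isotype, in the Tnn-led cluster. The summed level of 10 chondrocyte markers in stroma was low in every library, from 8.20 CPM (anti-Notch3) to 37.8 (isotype), with Matn1 at 0 in all 6. The number of cartilage cells in each preparation, and its part in these results, was not tested.

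Cytl1 differed from the other genes in being held by few cells at a high level. The 71 cells with at least 10 Cytl1 UMIs, a limit set after the values were seen, held 91.1% of all its UMIs. Of these, 36 were stromal, 34 endothelial and 1 of the neutrophil class. Over stromal cells Cytl1 stood at 18.8 CPM (16.7 to 21.1), 45.2 (42.2 to 48.4), 78.6 (72.1 to 85.4), 209.2 (199.3 to 219.4), 59.4 (55.7 to 63.3) and 64.3 (58.5 to 70.6). Every arthritic library was above both healthy libraries, and arthritic knockout was highest. A single cell held 263 of the 295 UMIs in healthy wild type and another held 433 of the 447 in anti-Notch3. Without the richest cell of each library the levels were 2.04, 37.6, 51.4, 166.9, 39.4 and 2.02 CPM, so healthy wild type and anti-Notch3 then stood together and lowest.

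**Figure D3:**
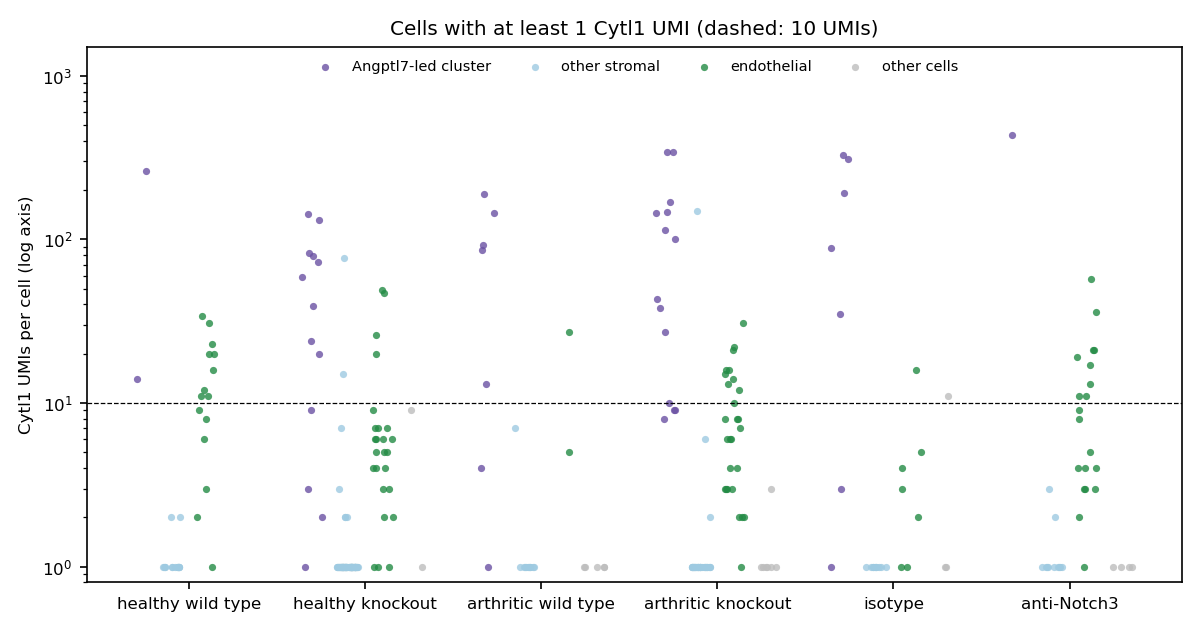
Cytl1 UMIs in each cell with at least 1 (log axis), by library and class; the dashed line is at 10 UMIs and the sideways spread within a class has no meaning. Cells of the Angptl7-led cluster reached 433 UMIs, endothelial cells 57, and other stromal cells mostly held 1.

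The Angptl7-led cluster held 33 of the 36 stromal Cytl1-rich cells: 2 of 53, 9 of 146, 5 of 16, 11 of 37, 5 of 17 and 1 of 11 of its cells by library. Its Cytl1 level was 623 and 924 CPM in the healthy libraries and 7912, 8951, 10027 and 9692 CPM in the arthritic ones, where anti-Notch3 rests on a single cell. Against the other 247 cells of the cluster, these 33 had Col2a1 at 648 CPM against 2.19 (14 of 33 cells against 2 of 247), Acan at 606 against 36.4, Sox9 at 832 against 123 and Hapln1 at 434 against 70.7. Ucma was at 214 against 8.01 CPM and Col9a3 at 119 against 0.729, and Col9a2 was at 101 CPM against 0 UMIs. Col9a1 was all but absent, with 0 UMIs in the 33 cells and 1 in the others. Prg4, the lubricin gene of joint surfaces, was at 8207 against 2508 CPM and Chad at 7750 against 3664. Of the tendon genes, 6 ran the other way: Angptl7 was at 4665 against 12584 CPM, Fmod at 1391 against 3673, Thbs4 at 291 against 1193, Kera at 11.9 against 284, Tnmd at 17.8 against 80.1 and Scx at 23.8 against 99.1. Comp did not, at 8118 (7693 to 8560) against 6985 (6846 to 7127) CPM. The Cilp2 intervals overlapped, at 1218 (1057 to 1397) against 1298 (1238 to 1359) CPM. Median depths were alike, at 4509 and 4866 UMIs. The groups were split on Cytl1 after its values were seen, so these are descriptions with no test. The groups also differed in library make-up. Cytl1-rich cells were 3.77% and 6.16% of the cluster in the healthy libraries, and 9.09% to 31.25% in the arthritic libraries. For Tnmd, 107 of the 113 UMIs of the cluster were from healthy knockout cells, and each arthritic library had 0. Whether the differences between the groups held within a single library was not tested.

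Endothelial cells were the other carriers of Cytl1, and all 34 rich ones also had Pecam1, an endothelial adhesion gene, while 29 had Cdh5, the gene of vascular cadherin. Only 1 of the 34 had Chad. Over the endothelial class Cytl1 was at 376 CPM (326 to 431) in healthy wild type, 467 (409 to 530) in healthy knockout, 44.6 (30.5 to 62.9) in arthritic wild type, 477 (420 to 541) in arthritic knockout, 31.9 (21.8 to 44.96) in isotype and 668 (588 to 756) in anti-Notch3. Cells with a UMI numbered 15 of 152, 25 of 218, 2 of 122, 27 of 234, 7 of 215 and 20 of 124. The arthritic libraries without Notch3 targeting overlapped each other and were lower than the other 4 libraries without overlap.

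The endothelial class was made of a Selp-led cluster, Selp being an adhesion gene of venules, and a cluster led by Rbp7 and Gpihbp1, genes of capillary endothelium. In the Selp-led cluster Cytl1 was at 1174 CPM (15 of 30 cells), 262 (13 of 66), 7.78 (1 of 98), 501 (13 of 56), 19.8 (6 of 155) and 1030 (14 of 41). In the Rbp7-led cluster it was at 0 CPM (0 of 122 cells, allowing up to 9.86 CPM), 599, 356 (from 1 of 24 cells), 467, 81.7 (from 1 of 60 cells) and 415. The low values in arthritic wild type and isotype were thus seen in the Selp-led cluster, and in the Rbp7-led cluster each of these values came from a single cell.

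Tnmd was carried mainly by fibroblast clusters in every library but isotype, where the Tnn-led cluster held 69.6% of its UMIs. Scx likewise had its largest share in fibroblast clusters in those 5 libraries, from 48.8% to 87.1%. Over all libraries together the Dlk1-led cluster held 37.3% of Tnmd UMIs (225 CPM, 663 of 2174 cells), the Tnn-led cluster 23.7% (189 CPM) and the Mfap4-led cluster 12.6% (213 CPM), and the Angptl7-led cluster held only 1.62%. Over stromal cells it stood at 74.5 CPM (70.3 to 78.9), 113.7 (108.9 to 118.7), 43.2 (38.5 to 48.4), 92.1 (85.6 to 99.0), 142.0 (136.3 to 147.9) and 33.2 (29.1 to 37.8). Isotype was highest, anti-Notch3 lowest, and no intervals overlapped. Within the Tnn-led cluster Tnmd was at 226.7 CPM in isotype against 36.3 in arthritic wild type and 10.1 in anti-Notch3.

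Sox9 was the most evenly spread of the 10 over the libraries. It stood at 60.0 CPM (56.3 to 64.0), 69.4 (65.7 to 73.3), 62.7 (57.0 to 68.8), 44.2 (39.8 to 49.1), 52.7 (49.3 to 56.4) and 37.1 (32.7 to 42.0) over stromal cells. Healthy libraries and arthritic wild type were the highest and overlapped in part, and the arthritic libraries with Notch3 targeted were the lowest and overlapped. Its level was highest in the Angptl7-led cluster (200.5 CPM) and the Scrg1-led cluster (151.5 CPM), where 240 of 543 cells carried it, and it was 71.8 CPM in the Tnn-led cluster. In isotype 56.3% of Sox9 UMIs lay in the Tnn-led cluster.

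**Figure D4:**
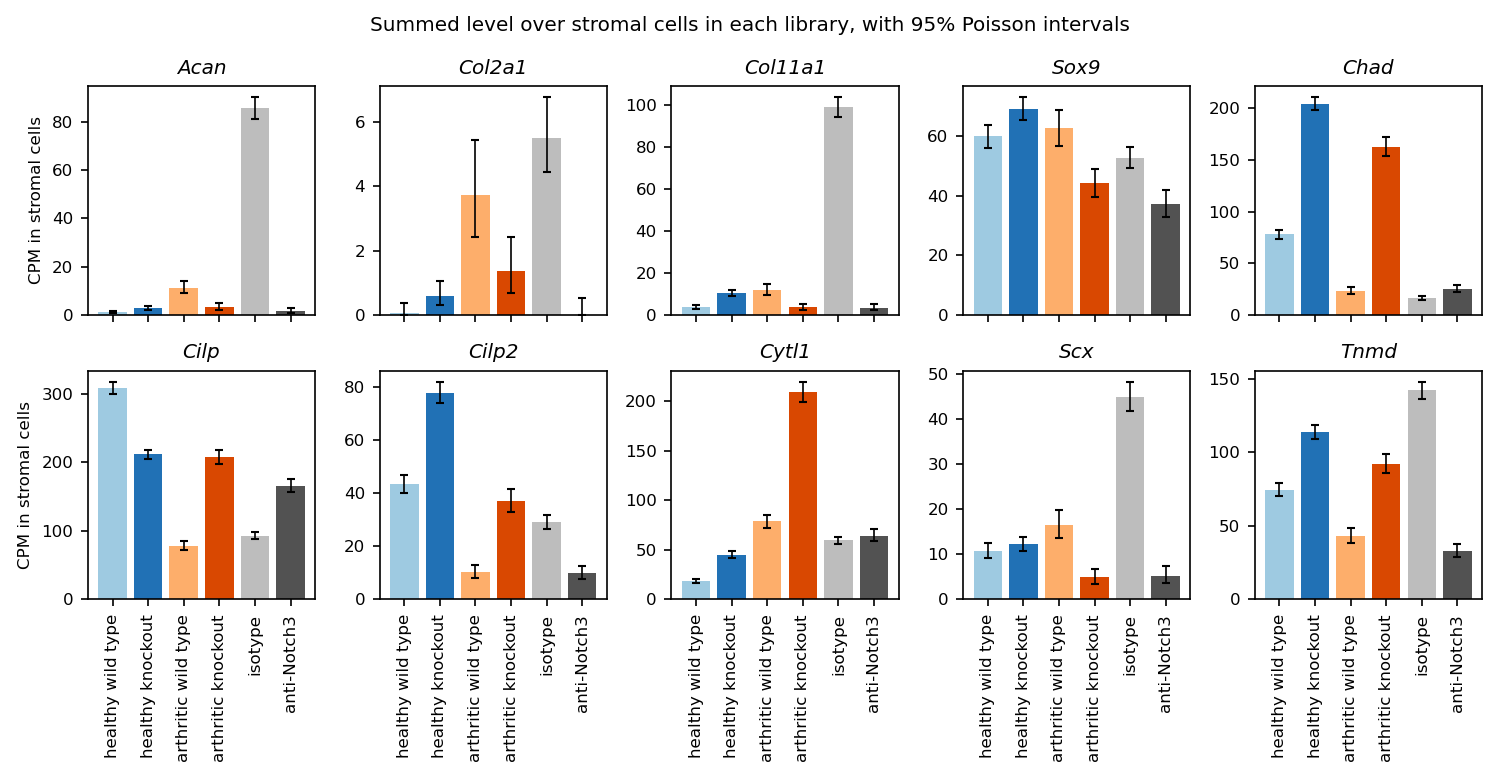
CPM of each gene summed over the stromal cells of each library, with exact 95% Poisson intervals (counting error only); each panel has its own scale, starting at 0. Isotype was the highest library for Acan (85.9), Col11a1 (99.2), Scx (45) and Tnmd (142.0), and arthritic knockout was the highest for Cytl1 (209.2).

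The share of stromal cells with a UMI was set beside that in myeloid cells, which should lack these genes, to gauge free RNA. Among 4209 myeloid cells (median depth 4063 UMIs, against 5671.5 for stromal cells) the shares ran from 0 of 4209 for Col2a1, which allows up to 0.0876%, to 0.808% for Cilp. Over all stromal cells the shares were 4.51% for Acan, 0.256% for Col2a1, 6.66% for Col11a1, 19.2% for Sox9, 3.29% for Chad, 22.4% for Cilp, 5.85% for Cilp2, 1.70% for Cytl1, 6.65% for Scx and 15.2% for Tnmd. For each gene the stromal interval lay above the myeloid one. Thinned to 2000 UMIs per cell, which left out 363 shallower cells (31 to 100 per library), Acan was seen in 0% (0 of 1747 cells), 0.394%, 2.47%, 0.486%, 9.52% and 0.290% of stromal cells by library, against 0.675%, 0.712%, 4.05%, 0.699%, 19.8% and 0.744% before thinning. Thinned shares were 0.973%, 1.89%, 1.85%, 0.546%, 11.6% and 0.676% for Col11a1 and 2.003%, 4.53%, 1.13%, 2.25%, 1.19% and 0.580% for Chad. Isotype was still highest for Acan and Col11a1, and healthy knockout for Chad.

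Some of the genes were found together in the same stromal cells. Of 511 cells with Acan 61.5% also had Col11a1, against 4.08% of the other stromal cells, and 41.9% had Scx against 4.99%. Of 373 cells with Chad 66.5% had Cilp2 against 3.79%, and of 663 cells with Cilp2 37.4% had Chad. Sox9 was less tied to these, in 44.4% of Acan cells against 17.96% of the others. Of 1725 cells with Tnmd 9.74% had Acan, against 3.57% of the others. Cells with more UMIs show more genes of any kind, and co-detection was not corrected for depth.

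Likeness of pattern was measured as Pearson's r of log2(CPM + 1) over 45 units, each a stromal cluster in a library with at least 30 cells, against 10459 genes. It is a description, since units share libraries and clusters. Acan was most like Col11a1 (0.87), the tendon regulator Mkx (0.82) and the small proteoglycan Fmod (0.81), and Col11a1 was most like Camk4 (0.91), Fmod (0.87) and Acan. Chad and Cilp2 were each other's nearest gene (0.90), followed for Chad by Sec62 (0.83) and P3h2 (0.81) and for Cilp2 by Dnph1 (0.88) and Alox12 (0.87). Cytl1 was nearest to Npy (0.81), Ivns1abp (0.74) and Chad (0.71), and Col2a1 to Npy (0.76), Cytl1 (0.72) and Ivns1abp (0.69). Cilp was nearest to Dpysl3 (0.85), Fibin (0.84) and Alox12 (0.81), Scx to Dkk3 (0.88), 2010111I01Rik (0.86) and Edil3 (0.86), Tnmd to Apod (0.88), Cldn10 (0.87) and Meg3 (0.85), and Sox9 to Scrg1 (0.73), 1500015O10Rik (0.66) and Clu (0.65). Scx and Tnmd, which are linked in tendon, had r = 0.05.

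Notch3 targeting was compared within 3 pairs of libraries, first as ratios over stromal cells, which have no test with 1 library on each side. In healthy joints 6 of 9 measured members were at least 1.5-fold higher in the knockout, where 10.4% of all measured genes were, and none was as much lower, where 17.4% were. The 6 were Col11a1 (2.91-fold, 2.15 to 3.99), Acan (2.71-fold, 1.52 to 5.08), Chad (2.62-fold), Cytl1 (2.41-fold), Cilp2 (1.80-fold) and Tnmd (1.53-fold). Scx was 1.15-fold higher with an interval of 0.935 to 1.41, and Cilp was lower, at a ratio of 0.685 (0.656 to 0.714). Col2a1, with 12 UMIs in the pair, was below the 20 required to be counted, and its ratio was 9.34 (1.36 to 402). In fibroblast clusters alone Acan was not higher in the healthy knockout (0.590 CPM in wild type, 0.508 in knockout, from 9 UMIs in each).

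In the arthritic genotype pair the members split. In the knockout 5 of 10 were at least 1.5-fold higher (12.7% of all measured genes) and 4 lower (16.2%). Chad was 6.94-fold higher (5.90 to 8.22), Cilp2 3.56-fold, Cytl1 2.66-fold, Cilp 2.66-fold and Tnmd 2.13-fold. Acan was 3.51-fold lower (2.23 to 5.70), Scx 3.35-fold, Col11a1 3.35-fold and Col2a1 2.73-fold lower. A single cell held 18 of the 26 Col2a1 UMIs of arthritic wild type, and without the richest cell of each library Col2a1 was at 1.15 CPM (0.495 to 2.26) in wild type and 1.12 (0.510 to 2.12) in knockout. Sox9 had a ratio of 0.705 (0.612 to 0.813).

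In the antibody pair 2 of 10 members were at least 1.5-fold higher under anti-Notch3 (10.7% of all measured genes) and 6 lower (12.5%). Cilp was 1.79-fold higher (1.65 to 1.93) and Chad 1.55-fold higher (1.28 to 1.89), though in fibroblast clusters alone its log2 ratio was -0.41. Acan was 54.3-fold lower (30.2 to 108.9), Col11a1 28.7-fold lower (19.2 to 44.9), Scx 8.45-fold, Tnmd 4.27-fold and Cilp2 2.94-fold lower. Col2a1 was at least 12.8-fold lower, taken against the floor of 3 UMIs for the anti-Notch3 library, and the 95% interval of its ratio begins at 10.2-fold. Sox9 had a ratio of 0.704 and Cytl1 of 1.08 (0.966 to 1.21). Over stromal cells Acan, Col11a1, Sox9 and Scx were thus lower with Notch3 targeting in each arthritic pair but not in the healthy pair. Tnmd and Cilp2 were higher in the arthritic knockout and lower under the antibody. Col2a1 was lower in both arthritic pairs, but this rested on few cells. Without the richest cell of each library it stood at 1.15 CPM in arthritic wild type and 1.12 in arthritic knockout. A single cell held 46 of its 90 isotype UMIs. In fibroblast clusters alone Sox9 had a ratio of 1.19 (0.998 to 1.42) in the antibody pair, and Scx of 0.816 (0.643 to 1.03) in the healthy pair.

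**Figure D5:**
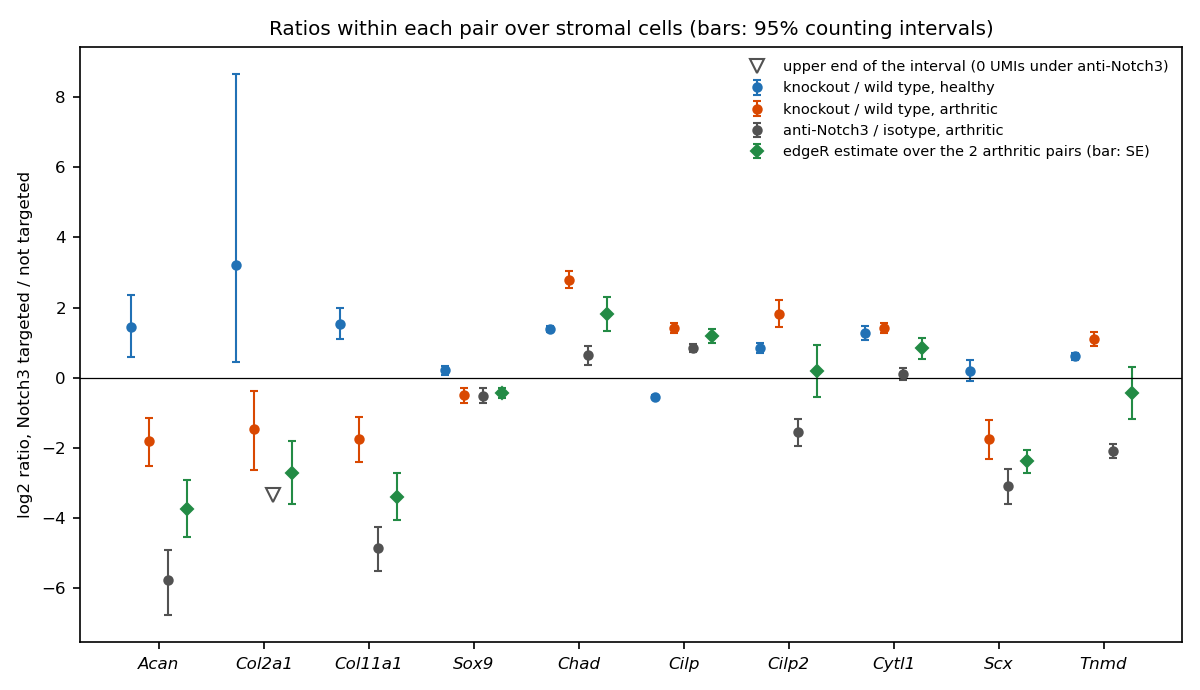
The log2 ratio of each gene within each pair over stromal cells (Notch3 targeted over not targeted; circles with 95% counting intervals) and the edgeR estimate shared by the 2 arthritic pairs (diamonds with SE). The open triangle is the upper end for Col2a1, which had 0 UMIs under anti-Notch3. Acan, Col11a1 and Scx lie below 0 in both arthritic pairs and above 0 in the healthy pair, where the Scx interval crosses 0.

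A test was possible only for an effect shared between pairs, with the pairs as repeats. Over all 3 pairs edgeR's quasi-likelihood test with Benjamini-Hochberg adjustment called 0 of 12840 genes (0% risen and 0% fallen), with 1066 at an unadjusted p under 0.05, while DESeq2 called 171. No member passed. The smallest adjusted p among members was that of Chad, with a log2 difference of 1.67 (SE 0.413, adjusted p = 0.371), which DESeq2 did call. Cytl1 had 1.01 (SE 0.288, adjusted p = 0.442).

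Over the 2 arthritic pairs, with 1 residual degree of freedom, edgeR's test called 227 genes that rose (1.93% of 11774) and 169 that fell (1.44%). Of the 10 members 1 rose and 1 fell. Cilp rose by 1.19 on the log2 scale (SE 0.197, edgeR adjusted p = 0.0353), from 78.3 to 207.9 CPM in the genotype pair and from 93.0 to 166.1 in the antibody pair. Scx fell by 2.38 (SE 0.332, edgeR adjusted p = 0.0237), from 16.6 to 4.95 and from 45 to 5.33 CPM. Both had the same direction in 2 of 2 pairs. Summed over every cell of the library instead of stromal cells, no gene was called, with Cilp at 0.97 and Scx at -2.47.

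The other 8 members did not pass in the 2 arthritic pairs. Col11a1 had a log2 difference of -3.38 (SE 0.668, edgeR adjusted p = 0.0556) and Acan of -3.72 (SE 0.804, adjusted p = 0.0709), each lower in both pairs but by unequal amounts. Chad had 1.81 (adjusted p = 0.117), Col2a1 -2.70 (0.176), Sox9 -0.44 (0.178), Cytl1 0.84 (0.220), Tnmd -0.43 (0.798) and Cilp2 0.20 (0.915). Without the filter on low counts 5 of these 8 passed: Col11a1 (edgeR adjusted p = 1.42e-05), Acan (2.92e-05), Chad (0.000848), Col2a1 (0.0111) and Cytl1 (0.0444). That setting called more genes of every kind: 605 rose and 554 fell, of 18492 tested. In fibroblast clusters alone, which made up 58.1% of isotype stroma, 5 members passed: Col11a1 fell by 3.83 (edgeR adjusted p = 0.000698), Acan fell by 3.28 (0.00476), Scx fell by 1.77 (0.00734), Cilp rose by 1.39 (0.00784) and Cytl1 rose by 2.64 (0.00846). Of the 11701 genes tested in these clusters, 514 rose and 413 fell. A single Clic5-led cell held 150 of the 186 Cytl1 UMIs of these clusters in arthritic knockout, against 17 UMIs in arthritic wild type, and the antibody pair had 8 UMIs in isotype and 13 in anti-Notch3. There Sox9 and Tnmd, negative over all stromal cells, had log2 differences of 0.029 and 0.10. Whether the effect differed between arthritic and healthy pairs was tested in a model added after the data were seen, which called 96 of 13424 genes (0.715%) and no member. The smallest adjusted p values were those of Scx (0.0859), Col11a1 (0.0931) and Cilp (0.0938).

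Partner genes from lists of the same tissues gave a background for these values. Of 12 tendon partners 0 rose and 6 fell in the 2 arthritic pairs by edgeR's test: Tnn (fell by 5.05) and Tnc (fell by 4.29), both tenascins, the keratan sulfate proteoglycan Kera (fell by 2.86), Col12a1 (fell by 2.67), the collagen crosslinking enzyme Lox (fell by 2.37) and Thbs4 (fell by 1.85), with adjusted p from 0.00511 to 0.0354. The median of the list was -1.96, against 0.00 over all genes tested. The list shares 8 genes with the markers that named the tendon-led clusters. Comp, a cartilage and tendon matrix protein, had 0.79 (adjusted p = 0.289) and Angptl7 0.78 (0.163). Of 18 cartilage partners 17 were in the matrices and 8 were abundant enough to be tested. Of these, 0 rose and 1 fell, the collagen gene Col27a1 (fell by 0.90, adjusted p = 0.0460), and Hapln1 had -2.76 (0.0722). Of 16 growth signals 11 were tested and 2 rose, Gdf10 (by 1.64) and Bmp2 (by 0.87).

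Other signals moved with the same libraries. Of 13 dissociation stress genes 2 rose in the 2 arthritic pairs, Junb (by 1.38, edgeR adjusted p = 0.0383) and Zfp36 (by 1.23, 0.0387), and the median of the list was 0.81. Their summed level in stroma was 21786, 30709, 19214, 36429, 14557 and 21820 CPM by library, highest in the knockouts and lowest in isotype. Summed osteoblast markers (7 genes) were lowest in healthy wild type, at 61.6 CPM, and ran from 141.4 to 237.8 in the other libraries. Summed erythroid markers were at 487 CPM in healthy wild type and from 0.0614 to 24.4 elsewhere. Summed adipocyte markers (5 genes) were at 39.5, 45.96, 39.1, 2.23, 0.737 and 6.91 CPM by library, low in isotype and in both arthritic libraries with Notch3 targeted. The part of these in the results was not tested.

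Arthritis was compared with health over both genotypes. The fit used all 6 libraries, so the antibody pair took no part in the difference but added to the estimate of its spread. By edgeR's test 0 of 12840 genes passed (0% in each direction), with 548 at an unadjusted p under 0.05, and DESeq2 called 2. Cytl1 had the smallest unadjusted p among members, with a log2 difference of 2.17 (SE 0.357, edgeR adjusted p = 0.909), and DESeq2 called it. A batch difference between healthy and arthritic libraries cannot be told apart from arthritis.

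As ratios of single libraries, Cytl1 was 4.19-fold higher in arthritic than healthy wild type (3.63 to 4.84) and 4.63-fold higher in arthritic than healthy knockout (4.26 to 5.03). Both folds rest on few cells. In healthy wild type 263 of 295 UMIs were in a single cell. In arthritic knockout 11 cells of the Angptl7-led cluster held 1477 of 1689 UMIs, and in healthy knockout 9 such cells held 651 of 837. In wild type 5 of 10 members were at least 1.5-fold higher in arthritis (15.2% of all measured genes) and 4 lower (19.0%). Acan was 11.1-fold higher (6.43 to 20.4) and Col11a1 3.37-fold, while Cilp2 was 4.15-fold, Cilp 3.94-fold, Chad 3.33-fold and Tnmd 1.72-fold lower. In fibroblast clusters alone Chad ran the other way, with a log2 ratio of 2.97. That ratio rests on 4 UMIs in healthy and 14 in arthritic wild type. In the knockout 2 of 10 were higher (9.03%) and 4 lower (9.37%). There Acan had a ratio of 1.17 (0.700 to 1.91) and Cilp of 0.984 (0.929 to 1.04), and Col11a1 was 2.89-fold lower. These comparisons share libraries with the genotype pairs above.

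The isotype and arthritic wild-type libraries, both arthritic and without Notch3 targeting, differed from each other in these genes. In isotype 5 of 10 members were at least 1.5-fold higher (11.2% of all measured genes) and 0 lower (10.0%): Col11a1 8.25-fold (6.62 to 10.4), Acan 7.60-fold (6.05 to 9.65), Tnmd 3.29-fold, Cilp2 2.79-fold and Scx 2.71-fold. Each of these folds is a difference between libraries in which Notch3 was not targeted, and it is larger for Acan, Col11a1 and Tnmd than the fold between arthritic knockout and arthritic wild type.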

How the data were processed

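The deposited files are unnormalized UMI counts for each gene in each barcode; the submitters' processing notes name Cell Ranger 3.0.2 and mm10. Every deposited barcode had at least 501 genes and at most 19.9% mitochondrial UMIs, so a filter preceded deposit, with settings not given in the sources used here. Barcodes with under 200 genes (none) or over 10% mitochondrial UMIs were left out. Scrublet (scanpy 1.11.5, per library, expected doublet rate 0.03) marked 0.99% of 18077 barcodes as doublets, 3 in isotype and 103 in healthy knockout, and these were left out. Clustering (2000 variable genes, 30 components, 20 neighbours, leidenalg 0.10.2, resolution 1) was done without the members and list genes. It used every deposited barcode, and the barcodes to be left out were dropped afterwards. A cluster took the class whose markers were raised most, with at least 3 raised, a rule set after seeing the data; 1 proliferating cluster stayed unnamed. Stromal cells are the fibroblast and tendon-led clusters.

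Counts were summed per library. Ratios used a pseudocount of 0.5 UMIs on the log2 scale and at least 20 UMIs per pair to be counted. Tests were edgeR 4.0.16 (TMM, filterByExpr, quasi-likelihood; terms for pair and Notch3 targeting; threshold 0.05), with DESeq2 1.42.0 as an alternative. On simulated counts the tests were checked for recovery of known fold changes. Those counts had the same spread for every gene and no difference between pairs. The check therefore does not show how the tests fare on these data. The spread behind each p comes from the disagreement between pairs, not between mice. Each gene's spread is also drawn toward that of the other genes tested, so each p rests in part on those genes. The genes named are the members, list genes, the 5 leading genes of clusters with at least 10% of a member's UMIs and the 3 most alike genes per member; Prg4, Dcn, Pecam1 and Cdh5, the leading genes of the Saa3-led and endothelial clusters, and the splits by Cytl1 were chosen after values were seen. The members and lists were chosen with earlier results of these data known.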

Additional observations from a re-analysis of the deposited data

How the results depend on the processing

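RLE size factors moved counts of calls by at most 1 and changed no member's call. For the 3-pair fit, no filter on low counts gave 33 calls, DESeq2 171, fibroblast clusters alone 4, leaving out the healthy pair 396, the antibody pair 2 and the arthritic genotype pair 0. For the 2 arthritic pairs, no filter gave 1159 calls among 18492 genes (7 of 10 members, against 2). Fibroblast clusters alone gave 927 among 11701 genes, and every cell 0. For arthritis, no filter gave 3 and DESeq2 2. The causes were not tested.

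Directions turned in these cases among the fits and the ratios of at least 1.5-fold (log2). In fibroblast clusters alone, Sox9 was 0.13 over 3 pairs and 0.029 over the arthritic pairs, Tnmd 0.10 over the arthritic pairs and Chad 0.59 for arthritis. The single-pair ratios there were -0.21 for Acan and for Col2a1 in healthy joints, 2.48 for Col2a1 in the arthritic genotype pair, -0.41 for Chad in the antibody pair, and -0.30 for Col2a1 and 2.97 for Chad for arthritis in wild type. Most of these rest on few UMIs. Acan had 9 in each healthy library. Col2a1 had 1 in each healthy library, 0 in arthritic wild type and 3 in arthritic knockout. Chad had 4 in healthy and 14 in arthritic wild type, and 30 in isotype and 15 in anti-Notch3. Of smaller ratios, Sox9 turned to 0.25 in the antibody pair and -0.16 for arthritis in wild type, Scx to -0.29 in healthy joints and Cilp to 0.15 for arthritis in knockout. Other settings turned ratios near 0: with every cell Sox9 was -0.07 for arthritis in wild type and Acan -0.06 for arthritis in knockout, and with all deposited barcodes Cilp was 0.02 for the latter. Over 3 pairs, Tnmd was -0.43 without the healthy pair and -0.66 without the arthritic genotype pair, Cilp2 -0.22 without the latter, and Col2a1 0.11 and Col11a1 0.050 without the antibody pair. Cilp2 was -0.10 over the arthritic pairs with every cell. Members at least 1.5-fold higher or lower became 4 and 1 in the healthy pair and 2 lower for arthritis in wild type (fibroblast clusters alone); members higher in the antibody pair became 0 (every cell) and 1 (all deposited barcodes). Col2a1 rests on 29 cells, and 48 of 60 shares of cells lay outside their interval after thinning. No library can be left out of a pair without losing the pair.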
